A study of Mus musculus with 8 samples.

Results

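The response of wild-type mouse macrophages to interleukin 4 (IL-4) was measured across all genes detected on an Illumina Mouse Ref-8 v2.0 expression array. Resident peritoneal macrophages of C57BL/6 mice were held for 6 h with IL-4 at 10 ng/ml or left unstimulated, and 2 arrays were run for each condition. These 4 arrays are part of a set of 8. The other 4 hold cells of the same strain labelled Fcg-chain KO, also with and without IL-4, and were used here to estimate the spread between duplicate arrays and, in 1 comparison, to set the knockout response beside the wild-type one. All 9862 detected genes, those with a probe above background in both duplicates of 1 group or more, were tested, so a gene detected only where it is high could pass this filter through that group alone. The genes named below were picked from among them, in part by size of change. Before the 6 h treatment all cells, controls included, had adhered overnight in medium with 10% serum and 15% supernatant of L929 cells, a source of M-CSF (macrophage colony-stimulating factor), and non-adherent cells had been removed. The labels number the duplicates without tying them to animals or cultures, so every p-value measures the spread between these arrays, which may be technical.

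IL-4 is a cytokine of type 2 immunity, made mainly by T helper 2 cells, basophils and innate lymphoid cells. Its receptor activates Janus kinases, which phosphorylate the transcription factor STAT6. STAT6 dimers then enter the nucleus and bind DNA where the letters TTC and GAA are separated by a short spacer. In macrophages the resulting program is called alternative activation, and it is known for chitinase-like proteins, mannose-binding lectins, arginine metabolism and chemokines that draw eosinophils and T cells.

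The cells carried the RNA of macrophages. All 6 macrophage markers with a probe were above background on the 4 wild-type arrays, among them Lyz2, the macrophage and neutrophil lysozyme, and Adgre1, the F4/80 antigen. Their summed intensity was 27378 to 28557 on the unstimulated arrays and 25335 to 26485 on the IL-4 arrays. Of 8 B cell markers, 6 were also above background on all 4 arrays, with sums of 1940 to 2551 unstimulated and 1990 to 2804 with IL-4. Of 9 neutrophil markers only S100a8 and Retnlg were above background on all 4 arrays. The summed level of that list was 2681 to 2964 unstimulated against 1662 to 1814 with IL-4. Most of that sum was S100a8, at 2181 and 1901 unstimulated and 925 and 1080 with IL-4. Retnlg measured 106 and 129 against 97.1 and 97.6. The other markers of the list lay near or below background, and S100a9 was below it on all 4 arrays. Markers of T and NK cells summed to 1113 to 1227 unstimulated and 1024 to 1091 with IL-4, those of mast cells and basophils to 1776 to 2151 and 1808 to 2205, and those of small macrophages and dendritic cells to 1331 to 1394 and 1133 to 1212, while no eosinophil marker was above background on all 4 arrays. Except for macrophages, each sum also includes markers that were not above background on all 4 arrays. Of 8 mast cell and basophil markers, 6 were above background on all 4 arrays, so their flat sum covers unlike members. Hdc measured 186 and 200.1 unstimulated and 256 and 306 with IL-4, and Fcer1a 167 and 181 against 214 and 264. Cpa3, Mcpt4, Tpsb2 and Cma1 had overlapping groups. In bulk RNA, fewer cells of a type and less RNA per cell cannot be told apart. Duplicate arrays correlated at 0.9943 (unstimulated) and 0.9946 (IL-4) over all tested genes, against 0.9793 to 0.9813 across conditions.

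Intensities below are the deposited values of each array. Fold and log2 changes were computed after background correction and are therefore larger than the ratio of the deposited values, most of all for dim genes. Each log2 change is given as IL-4 minus unstimulated with its standard error (n = 2 arrays per group), and each adjusted p comes from limma with Benjamini-Hochberg adjustment over all 9862 genes. A gene was said to rise or fall when that adjusted p was under 0.05. Where a value without an array is given, arrays were left out 1 at a time; robust moderation is limma's variance estimate that allows for outlying genes.

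IL-4 changed 1618 genes, 16.4% of those tested, of which 770 rose (7.81%) and 848 fell (8.6%). The counts in the gene lists below stand against these shares. Small counts near them describe single genes and not the list. Most changes were small. A change under 1.5-fold was seen in 896 of the called genes, 519 changed between 1.5-fold and 2-fold, 165 between 2-fold and 4-fold, and 38 by 4-fold or more. The large changes were mostly increases, with 33 genes rising and 5 falling by 4-fold or more. The median over all tested genes was a log2 change of -0.02. The deposited arrays share nearly the same distribution of values, so this median was largely set beforehand. It cannot show whether RNA levels shifted as a whole. Non-overlapping duplicates are a weak criterion here, because the 2 IL-4 arrays did not overlap the 2 unstimulated arrays in 5427 genes, or 55% of those tested. The number of called genes fell to 1001 without the first unstimulated array and to 979 without the second IL-4 array, whereas the number that were called and changed at least 2-fold was 203 (2.06%) with all arrays and 199 to 225 with any 1 array left out. That count depended on the background step instead, at 98 without background correction and 130 with an offset of 50, and so do the fold classes above.

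**Figure D1:**
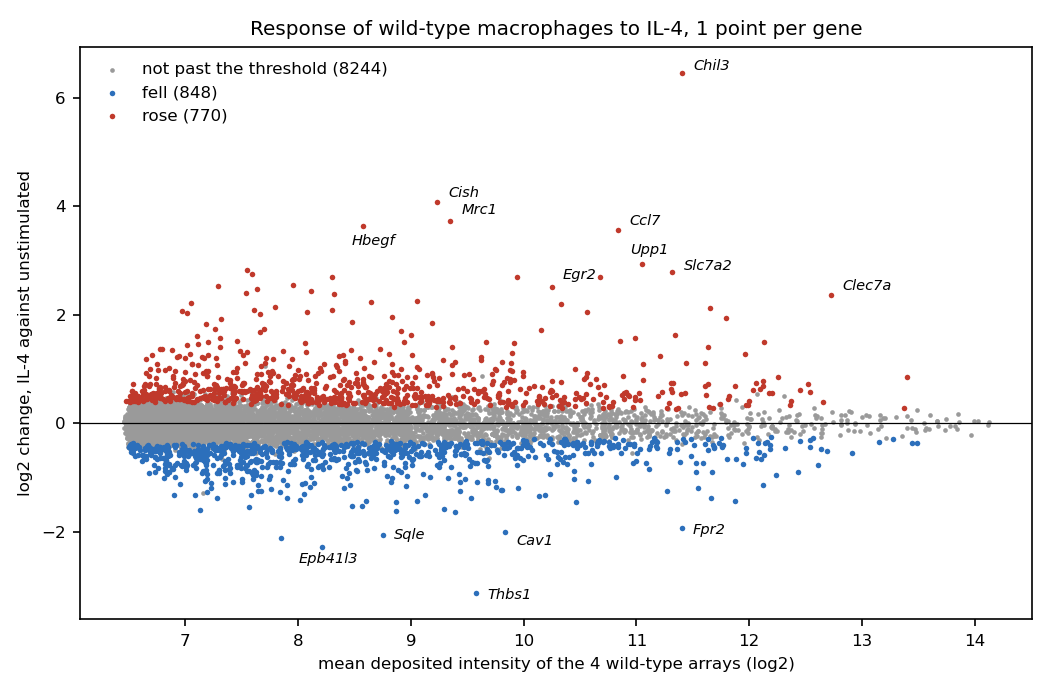
Log2 change after 6 h of IL-4 (vertical axis) against the mean deposited intensity of the 4 wild-type arrays (log2, horizontal axis), 1 point per gene for 9862 genes. Red points are the 770 genes that rose, blue points the 848 that fell; the named increases reach further from 0 than the named decreases.

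The gene with the largest increase was Chil3, which encodes the chitinase-like secreted lectin Ym1. It went from 122 and 128 on the unstimulated arrays to 4755 and 5856 with IL-4, a log2 change of 6.46 ± 0.12 (adjusted p = 4.6e-13). Both control values lay just above background, and both IL-4 values were far from them. The closely related Chil4 was below background, and probes of such near-identical family members can share signal.

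Upp1, the uridine phosphorylase that splits uridine into uracil and a sugar phosphate, was also among the 15 largest increases. Its intensity was 430.0 and 674 unstimulated and 3549 and 3799 with IL-4, a 7.66-fold rise (log2 change 2.94 ± 0.33, adjusted p = 4.7e-05). Il20rb, a receptor chain for cytokines of the IL-20 family, measured 129 and 134 against 419 and 579, a 6.5-fold rise that was smaller when its probes were averaged (log2 change 2.70, and 1.61 as the mean of its probes). Mmp13, a collagenase that cuts fibrillar collagen, measured 484 and 479 unstimulated and 2312 and 3263 with IL-4 (log2 change 2.69 ± 0.25, adjusted p = 8e-06, and 1.63 as the mean of its probes). In each of these the lower IL-4 array stood well above the higher control array.

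2 further genes of this group started near background. Wnt2, a secreted Wnt ligand, rose from 116 and 121 to 420.1 and 335 (log2 change 2.54 ± 0.14, adjusted p = 5e-08, and 1.66 without background correction). Lipn, a lipase known from skin, rose from 91.0 and 93.6 to 234 and 209, and its log2 change of 2.53 became 1.26 without background correction.

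**Figure D2:**
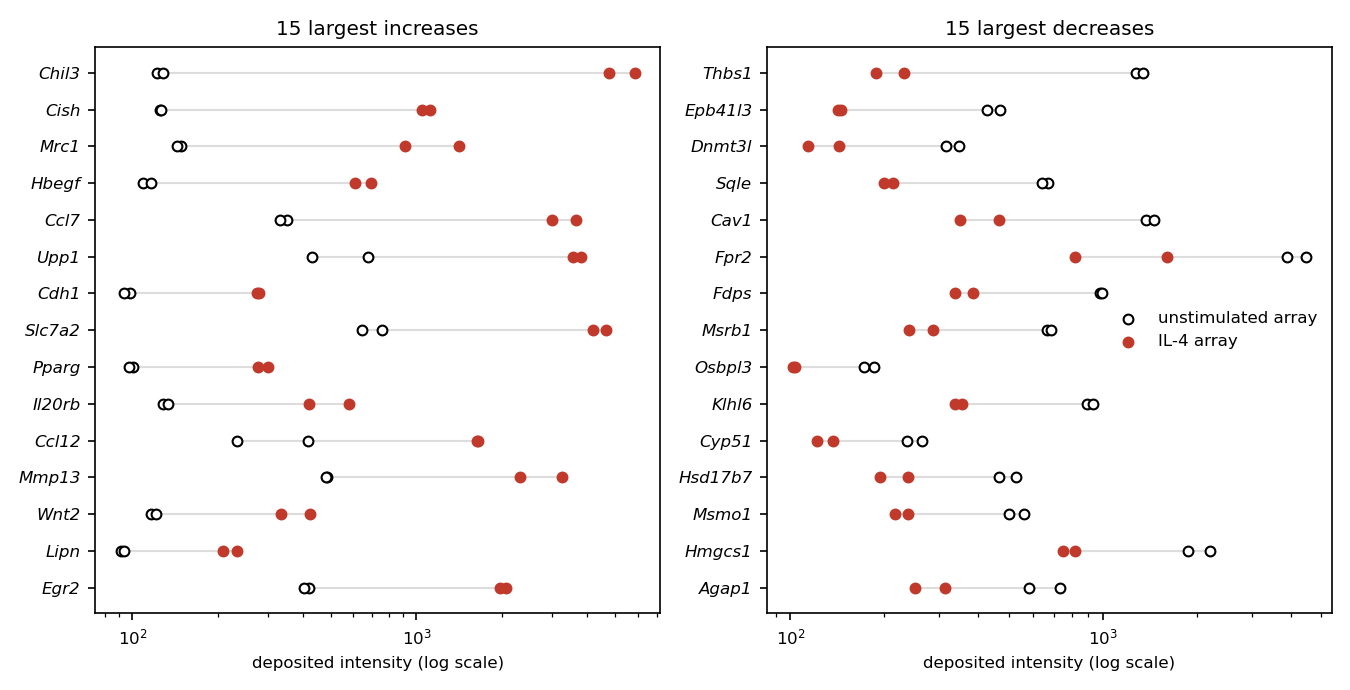
Deposited intensity (horizontal, log scale) of the 15 largest increases and 15 largest decreases, by gene; open circles are the 2 unstimulated arrays and red circles the 2 IL-4 arrays. In all 30 genes the groups do not overlap, as the choice of these genes required, and Chil3 spans the widest range, from 122 to 5856.

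Several of the genes that rose carry such spaced TTC and GAA letters just upstream of their start, as do some that fell, such as Fpr2 and Il18. Only genes that rose were chosen for printing. They are printed here, 5′ to 3′ on the gene's strand, from RefSeq promoter windows of the GRCm38.p6 build, with TTC and GAA spaced by 3 or 4 bases in capitals. The letters searched were TTCNNNGAA and the same with 4 bases between TTC and GAA, each of which is its own reverse complement.
Chil3, chr3:106167704-106167764, minus strand: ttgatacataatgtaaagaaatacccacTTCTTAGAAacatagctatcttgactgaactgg
Ccl17, chr8:94810283-94810377, plus strand: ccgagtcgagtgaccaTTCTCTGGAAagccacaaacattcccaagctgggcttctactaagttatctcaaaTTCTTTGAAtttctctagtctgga
Clec7a, chr6:129472879-129472929, minus strand: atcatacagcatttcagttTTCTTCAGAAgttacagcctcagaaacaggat
Tbxas1, chr6:38918846-38918896, plus strand: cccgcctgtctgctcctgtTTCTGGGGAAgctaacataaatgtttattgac

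Such matches are common. Among the 8067 tested genes with a promoter window (250 bases before to 50 after the start), the form with 3 bases occurred in 8.54% and the form with 4 in 6.73%. Of the 640 genes with a window that rose, 11.1% held the first and 8.59% the second, and of the 693 that fell, 8.37% and 6.93%. For changes of 2-fold or more the shares were 10.3% and 10.3% of the 97 genes that rose. Of the 64 that fell by as much they were 12.5% and 9.38%, so the first form was not more frequent among the larger increases. A match is a description of these letters in this window and not evidence of binding.

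Among the inhibitors that feed back on cytokine receptors, 5 of the 7 measured SOCS family genes rose and none fell, with a median log2 change of 0.80 against -0.02 over all genes. The family binds activated receptors or kinases and dampens their signal. Socs2 measured 293 and 282 unstimulated and 698 and 693 with IL-4, a 2.83-fold rise (adjusted p = 7.6e-06). Socs1 rose from 93.7 and 96.0 to 140.4 and 141, near the background threshold throughout (log2 change 1.35, and 0.57 without background correction). Cish, the family member with the largest change, went from 125 and 126 to 1043 and 1117. Socs3 (709 and 719 against 974 and 1469) and Socs5 (165 and 150.1 against 192 and 191) were called with all arrays but not without the second unstimulated or the second IL-4 array, which left 3 of 7. Socs3 also lost its call without the first control array and with robust moderation, and Socs5 without the first IL-4 array. Socs4 and Socs6 had overlapping groups.

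Of 11 measured genes of the receptor pathway 1 rose and 2 fell, with a median log2 change of -0.17. Jak2, a Janus kinase used by many cytokine receptors, rose from 413 and 389 to 596 and 662 (log2 change 0.75 ± 0.10, adjusted p = 0.00023). Ptpn6, the phosphatase SHP-1 that opposes cytokine signalling, fell from 1677 and 1927 to 1318 and 1172 (log2 change -0.56 ± 0.10, adjusted p = 0.0019, and -0.37 as the mean of its probes). Il13ra1, the chain that IL-4 and IL-13 share outside lymphoid cells, measured 283 and 296 against 164 and 217, and its call was lost without the first IL-4 array (log2 change -0.57, adjusted p = 0.0614). Stat6 stood at 272 and 279 unstimulated and 244 and 262 with IL-4, a difference that did not pass the test (adjusted p = 0.45).

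In the secreted alternative activation list 5 genes were measured and called as rising, with a median log2 change of 1.57; 1 of them, Rnase2a, was detected in wild-type cells with IL-4 alone, so its direction was set by the filter, and 4 remained in the count with probes above background on all 4 wild-type arrays. Igf1, insulin-like growth factor 1, was bright in both conditions, at 1197 and 929.9 unstimulated and 3032 and 2984 with IL-4, a 2.98-fold rise (log2 change 1.57 ± 0.16, adjusted p = 1.9e-05). Rnase2a, an eosinophil-associated ribonuclease, was not above background on either unstimulated array and measured 160.1 and 164 with IL-4 (log2 change 2.06, and 0.87 without background correction). It belongs to a family of near-identical genes whose probes can share signal. Retnla, the secreted protein RELM-alpha, varied between the controls (468 and 744) and rose to 1206 and 1017 (log2 change 1.00 ± 0.19, adjusted p = 0.0028, and 0.62 without the first control array). Clec10a, a galactose-type lectin, was called at 96.5 and 97.8 against 118 and 141, but not without either unstimulated array, without the second IL-4 array, without background correction or with robust moderation.

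Surface lectins split into both directions, with 4 of 14 measured genes rising and 3 falling. Mgl2, a galactose-binding lectin and close relative of Clec10a, rose from 137 and 125 to 426 and 417, a 5.42-fold change (log2 change 2.44 ± 0.16, adjusted p = 2.7e-07). Clec7a, the beta-glucan receptor Dectin-1, measured 2035 and 2503 unstimulated and 11286 on each IL-4 array (log2 change 2.36 ± 0.11, adjusted p = 8.3e-09). The equal IL-4 values mean that the gene held the same rank on both arrays, since the deposited values share 1 distribution. Clec4n, the fungal mannan receptor Dectin-2, moved the other way, from 5467 and 5348 to 1572 and 2665 (log2 change -1.43 ± 0.19, adjusted p = 0.00019). Clec5a, a receptor that signals through DAP12, fell from 607 and 566 to 269.7 and 363 (log2 change -1.08 ± 0.19, adjusted p = 0.0018). In all of these lectins the duplicates of the 2 conditions stayed apart.

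Of 18 measured transcription factors of macrophage activation, 9 rose and none fell, with a median log2 change of 0.62. Nfil3, a basic leucine zipper repressor, rose from 169 and 197 to 644 and 589, a 4.73-fold change (log2 change 2.24 ± 0.13, adjusted p = 6.6e-08). Batf3, a basic leucine zipper factor known from dendritic cells, rose from 114 and 111 to 196 and 212 (log2 change 1.57 ± 0.12, and 0.86 without background correction). Bhlhe40, a basic helix-loop-helix repressor, rose from 673 and 766 to 1271 and 1367 (log2 change 0.94 ± 0.10, adjusted p = 2.7e-05). Ppargc1b, a coactivator of mitochondrial and lipid genes, stayed dim at 96.1 and 103 against 146 and 141 (log2 change 1.21, and 0.53 without background correction). Irf4 measured 154 and 129 against 194 and 197, and was not called without the second control array (log2 change 0.56, adjusted p = 0.0568). The lineage factors Spi1, Cebpa and Irf8 were measured and did not pass the test.

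Chemokines of the CC class formed the list with the highest median, a log2 change of 2.09 over 11 measured genes. Of these 7 rose, a count that held under every alternative tried, and 1 fell. Ccl2, the main attractant of CCR2-bearing monocytes, rose from 225 and 230.3 to 885 and 793 (log2 change 2.25 ± 0.11, adjusted p = 2.9e-08). Ccl12, a second mouse ligand of the same receptor, rose from 234 and 415 to 1637 and 1642 (log2 change 2.70 ± 0.24, adjusted p = 5.3e-06). Ccl4, an attractant of monocytes and T cells, rose from 504 and 500.2 to 1830 and 2322 (log2 change 2.19 ± 0.13, adjusted p = 1.3e-07). In these 3 genes each IL-4 array exceeded each control array by a factor above that between duplicates.

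Ccl24, the eosinophil attractant eotaxin-2, varied between the controls, at 1674 and 885, and rose to 6050 and 4234 (log2 change 2.12 ± 0.25, adjusted p = 6.1e-05). Ccl17, a ligand of CCR4 on T helper 2 cells, rose from 117 and 112 to 258 and 294 (log2 change 2.09 ± 0.15, and 1.26 without background correction). The 1 member that fell, Ccl5, an attractant of T cells, lies outside the naming rule and was named after its values were seen. It measured 197 and 236 unstimulated and 135 and 174 with IL-4, and its call was lost without the second control or the first IL-4 array. Ccl8 and Ccl22 were below background.

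CXC chemokines did not share this pattern. None of 10 measured genes rose and 2 fell, with a median log2 change of -0.41. Cxcl16, a membrane-anchored ligand of CXCR6 that also binds oxidised lipid, fell from 1433 and 1677 to 768 and 925 (log2 change -0.93 ± 0.12, adjusted p = 0.00011). Cxcl14 fell from 1347 and 1284 to 837 and 909 (log2 change -0.63 ± 0.12, adjusted p = 0.0033). The number that fell became 4 without the first or without the second unstimulated array. Of 4 measured chemokine receptors only Cx3cr1, the fractalkine receptor, passed the test, at 137 and 148 unstimulated and 98.8 and 93.3 with IL-4 (log2 change -1.33, and -0.57 without background correction); without the first IL-4 array 2 receptors fell.

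**Figure D3:**
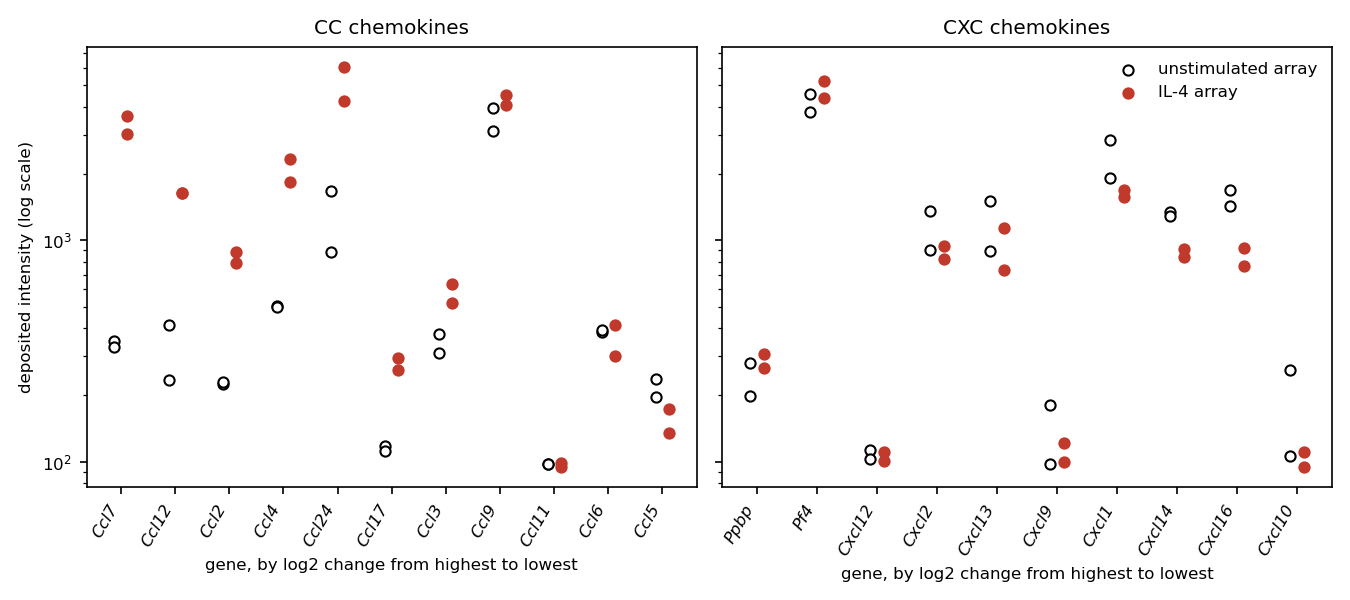
Deposited intensity (vertical, log scale) of the measured CC and CXC chemokines, ordered by log2 change; open circles are unstimulated arrays and red circles IL-4 arrays. The first 7 CC chemokines stand apart from their controls, whereas most CXC chemokines overlap or lie lower with IL-4.

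Genes of tissue repair and matrix turnover changed in both directions. Of 11 measured growth factors, 3 rose and 1 fell. Pdgfa, a platelet-derived growth factor chain that acts on mesenchymal cells, rose from 2001 and 2008 to 3050 and 3076 (log2 change 0.63 ± 0.10, adjusted p = 0.00084). Hbegf, a ligand of the EGF receptor, went from 109 and 116 to 609 and 689. Vegfa, the main vascular growth factor, fell from 332 and 360.3 to 151 and 193 (log2 change -1.42 ± 0.21, adjusted p = 0.00035). Among 15 proteases and inhibitors 4 rose and 3 fell. Timp1, an inhibitor of matrix metalloproteinases, rose from 2978 and 3390 to 4409 and 6338 (log2 change 0.75 ± 0.14, and 0.48 without the second IL-4 array). Adam8, a sheddase, rose from 1114 and 1101 to 1469 and 1570 (log2 change 0.48 ± 0.09, adjusted p = 0.0028). The list's decreases numbered 1 with any 1 of the 4 wild-type arrays left out.

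Coagulation and fibrinolysis genes numbered 4 increases and 3 decreases among 14, with a median log2 change of 0.00. Plau, urokinase, which activates plasminogen, rose from 159.7 and 185 to 344 and 378 (log2 change 1.47 ± 0.17, adjusted p = 6.7e-05). Tgm2, a tissue transglutaminase that crosslinks proteins, was already at 7076 and 8432 and reached 13102 and 14735 (log2 change 0.85 ± 0.11, adjusted p = 0.00013). F13a1, the plasma transglutaminase subunit, fell from 1914 and 1384 to 733 and 639 (log2 change -1.34 ± 0.15, adjusted p = 3.8e-05). The 2 transglutaminases moved in opposite directions, each without overlap. The list held 2 increases without either control array or without the second IL-4 array. Thbs1, thrombospondin 1, gave the largest decrease of any gene, from 1283 and 1349 to 188 and 231.

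Lipid mediator enzymes also divided, with 3 of 12 rising and 4 falling. Alox15, which makes 12- and 15-hydroxylated products from arachidonic acid, rose from 505 and 516 to 1085 and 1043 (log2 change 1.16 ± 0.11, adjusted p = 8e-06). Tbxas1, thromboxane synthase, whose upstream stretch is printed above, rose from 515 and 671 to 1145 and 1255 (log2 change 1.12 ± 0.13, adjusted p = 7.5e-05). Ptgis, prostacyclin synthase, rose from 1911 and 1958 to 3203 and 3170 (log2 change 0.74 ± 0.15, adjusted p = 0.0047). Among the 4 that fell was Alox5ap, which presents arachidonic acid to 5-lipoxygenase, from 8064 and 7662 to 4391 and 4876 (log2 change -0.77 ± 0.08, adjusted p = 2.6e-05). Alox5 itself fell from 217 and 227 to 158 and 166 (log2 change -0.69 ± 0.13, and -0.45 without background correction).

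Receptors for these mediators and for metabolites changed with 3 increases and 3 decreases among 14. Hcar2, the receptor for niacin and the ketone body beta-hydroxybutyrate, rose from 889 and 1111 to 2532 and 2887 (log2 change 1.51 ± 0.14, adjusted p = 9.6e-06). P2ry6, a receptor for the nucleotide UDP, rose from 3013 and 3689 to 5281 and 4804 (log2 change 0.61 ± 0.10, adjusted p = 0.0012). Ltb4r1, the high-affinity leukotriene B4 receptor, rose from 181 and 197 to 265 and 289, while Cysltr1, a cysteinyl leukotriene receptor, fell from 270.1 and 211 to 153 and 155 (log2 change -0.96, and -0.63 without background correction). Fpr2, a formyl peptide receptor, fell from 3899 and 4494 to 815 and 1605, a call that was lost with robust moderation (adjusted p = 0.0886). S100a8, which made up most of the neutrophil marker sum, also measured lower with IL-4, at 2181 and 1901 against 925 and 1080. Whether a change in neutrophil RNA had a part in the decrease of Fpr2 was not tested.

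Of 20 Toll-like receptors and adaptors 3 rose and 5 fell, and the median log2 change was -0.16. Tlr8, an endosomal RNA sensor, rose from 151 and 169.6 to 283 and 274 (log2 change 1.17 ± 0.13, adjusted p = 4.1e-05). Tlr2, the lipoprotein receptor, fell from 6251 and 6410 to 3263 and 3341 (log2 change -0.95 ± 0.08, adjusted p = 4e-06). Irak3, an inhibitory kinase relative, fell from 692 and 592 to 353 and 366 (log2 change -0.97 ± 0.11, adjusted p = 5.4e-05). The numbers of the list depended on single arrays: 1 rose without the first or second control array or the first IL-4 array, and 3 fell without the first control or the second IL-4 array.

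Inflammatory cytokines counted 2 increases and 4 decreases among 17. Il18, a cytokine that induces interferon gamma, fell from 265 and 226 to 134 and 139 (log2 change -1.33 ± 0.14, adjusted p = 3.4e-05, and -0.84 without background correction). Il1a measured 347 and 298 against 514 and 897 and lost its call without the second control or second IL-4 array and with robust moderation; without the second IL-4 array no cytokine rose, and 2 fell without either control array or the first IL-4 array. Tnf stood at 475 and 481 unstimulated and 444 and 521 with IL-4, and Il1b at 678 and 444 against 635 and 1419; both had overlapping groups, and neither passed the test. Without the first IL-4 array Il1b was called (log2 change 1.49, adjusted p = 0.0109), against a log2 change of 0.87 with all arrays and 0.24 without the second IL-4 array. Of 13 genes of the NF-kB family and its inhibitors 1 rose and 2 fell. Tnfaip3, the ubiquitin editor A20, rose from 262 and 240.0 to 349 and 358, and Nfkbiz, an atypical I-kappa-B protein, fell from 354 and 320.4 to 219 and 213 (log2 change -0.85 ± 0.13, adjusted p = 0.0004). In that family 1 gene fell without the first control or either IL-4 array.

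Of 24 interferon-stimulated genes 8 fell and none rose, with a median log2 change of -0.26. The summed intensity of the list was 4789 and 7052 on the unstimulated arrays and 4631 and 5198 on the IL-4 arrays. The controls thus differed over the whole list, and the sum of the first lay between those of the IL-4 arrays. Oasl2, a 2-5A synthetase relative, fell from 222 and 289.7 to 144 and 144 (log2 change -1.26 ± 0.15, adjusted p = 9.2e-05, and -0.82 without background correction). Oas2 fell from 127 and 128 to 101 and 97.6 (log2 change -0.88, and -0.36 without background correction). Only 4 of the list fell without the first IL-4 array and 3 without the second unstimulated array. The second unstimulated array had the higher value of Oasl2 and of Isg15, which measured 175 and 252 unstimulated and 140.5 and 152 with IL-4 and was not called without either of those 2 arrays.

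Among 17 immediate early genes 5 rose and 2 fell at 6 h. Egr2, a zinc finger factor, went from 418 and 403 to 1976 and 2070. Atf3 rose from 255 and 301 to 503 and 481 (log2 change 1.01 ± 0.16, adjusted p = 0.00057). Fos fell from 312 and 298 to 182 and 167 (log2 change -1.14 ± 0.15, adjusted p = 0.00014), and the ERK phosphatase Dusp6 fell from 2327 and 2532 to 1646 and 1729 (log2 change -0.54 ± 0.09, adjusted p = 0.0013). Zfp36, which destabilises cytokine messenger RNAs, rose from 1662 and 1464 to 2308 and 2255. Each of these changes separated the 2 conditions on every array.

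Of 13 measured genes of arginine and polyamine metabolism 4 rose and 2 fell. Arg1, arginase 1, gave a probe signal near the upper end of the array's range in both conditions, at 12645 and 12423 unstimulated and 10323 and 12910 with IL-4, and did not pass the test (log2 change -0.12 ± 0.10, adjusted p = 0.48). Arg2, the mitochondrial arginase, was near background at 97.9 and 86.2 against 112 and 114 (log2 change 0.87 ± 0.18, adjusted p = 0.0048), with 0.30 without background correction and no call without the second control array (adjusted p = 0.0568). Ass1, argininosuccinate synthase, fell from 1498 and 2010 to 1006 and 1450 (log2 change -0.55 ± 0.17, adjusted p = 0.042), a call lost without the second control array (-0.33) or the first IL-4 array (-0.27), and under 4 other alternatives. Slc7a2, the cationic amino acid transporter CAT-2, went from 644 and 758 to 4637 and 4185. Odc1, which turns ornithine into putrescine, rose from 1054 and 1128 to 1905 and 1905 (log2 change 0.84 ± 0.09, adjusted p = 2.4e-05), and Srm, spermidine synthase, rose from 686 and 708 to 1242 and 1124 (log2 change 0.82 ± 0.10, adjusted p = 5.6e-05). Sat1, which breaks polyamines down, measured 1499 and 1252 against 1040 and 1090, a decrease that was not called without the first control array (adjusted p = 0.232) or either IL-4 array. No decrease of the list was called without the first IL-4 array, and 1 with any other wild-type array left out.

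The list with the most increases was ribosome biogenesis, where 26 of 33 measured genes rose and none fell, with a median log2 change of 0.56. The genes encode the nucleolar proteins that process, modify and assemble ribosomal RNA. Nop56, a core protein of box C/D small nucleolar particles, rose from 394 and 352 to 710.2 and 673 (log2 change 1.03 ± 0.11, adjusted p = 3.6e-05). Its partner Nop58 rose from 626 and 582 to 1166 and 1087 (log2 change 0.98 ± 0.10, adjusted p = 1.3e-05). Ncl, nucleolin, rose from 379.7 and 381 to 689 and 700.3 (log2 change 1.00 ± 0.10, adjusted p = 1.6e-05). None of these duplicates overlapped, and each change was close to 2-fold.

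Rrp1b, Rrp12 and Mybbp1a, which act in ribosomal RNA processing and nucleolar transcription, also rose, by 1.91-fold, 1.89-fold and 1.84-fold. The count was 18 to 26 with any 1 array left out and 24 to 26 under the other alternatives. The ribosomal proteins themselves did not move with these factors: 2 of 23 rose, with a median log2 change of 0.05, and neither was called without the first unstimulated or the first IL-4 array. Myc, a transcription factor known for driving nucleolar genes, rose from 98.2 and 109 to 134 and 134 (log2 change 0.86 ± 0.15, adjusted p = 0.0011, and 0.37 without background correction).

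Genes that supply and charge amino acids also included many increases. Of 17 aminoacyl-tRNA synthetases 9 rose and none fell, with a median log2 change of 0.32. Rars, the arginine enzyme, rose from 612 and 600.5 to 1138 and 1020 (log2 change 0.90 ± 0.11, adjusted p = 7.7e-05), and Vars, the valine enzyme, rose from 278 and 319 to 478 and 504 (log2 change 0.87 ± 0.12, adjusted p = 0.00016). The count was 4 without the first unstimulated array and 5 without either IL-4 array. Slc7a5, which imports leucine and other large neutral amino acids, rose from 276 and 294 to 749.9 and 734, a 3.08-fold change (log2 change 1.62 ± 0.10, adjusted p = 2.3e-07). The serine pathway enzymes Psat1 (316 and 304 against 405 and 451) and Shmt2 (116 and 125 against 174 and 168; log2 change 0.95, and 0.51 without background correction) rose as well. In the list of ATF4 targets and one-carbon enzymes that holds them, 4 of 20 rose and 2 fell. One that fell was Slc7a11, the cystine importer, at 1426 and 1251 against 497 and 779, a call lost with robust moderation (adjusted p = 0.0855).

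DNA replication genes showed a smaller shift, with 7 of 29 rising, 1 falling and a median log2 change of 0.24. Mcm6, a subunit of the replicative helicase, rose from 185 and 209.7 to 274 and 316 (log2 change 0.80 ± 0.14, adjusted p = 0.0012), and Mcm2 rose from 146 and 153 to 198 and 198 (log2 change 0.66, and 0.41 without background correction). Cdkn1a, the cell cycle inhibitor p21, rose too, from 722 and 757 to 989 and 1031 (log2 change 0.49 ± 0.10, adjusted p = 0.0051). The cyclins Ccnd1 and Ccnd2 had overlapping groups, and Ccnd1 was called without the second control array (log2 change 0.54, adjusted p = 0.0185, against 0.19 with all arrays). The number that rose was 3 without the first control array and 4 without either IL-4 array. Proteasome subunits, with 2 of 32 rising, and chaperones of the endoplasmic reticulum, with 1 of 20 rising and 2 falling, were near or below the background share; no proteasome gene rose without the first control or the first IL-4 array, and 1 chaperone fell without either control array or the second IL-4 array.

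**Figure D4:**
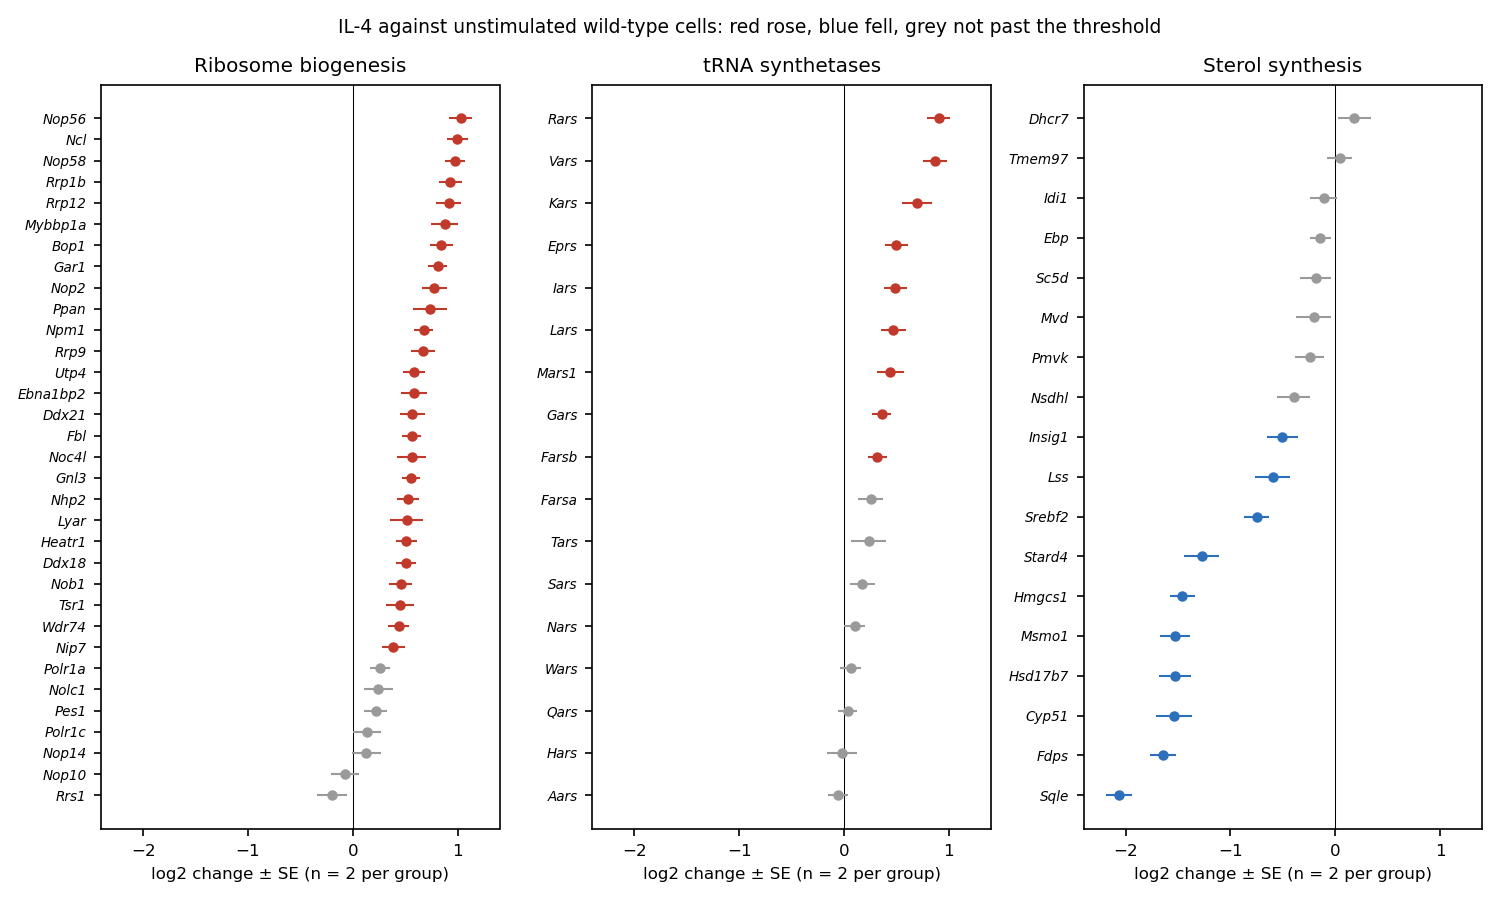
Log2 change with its standard error (horizontal; 2 arrays per group) of each measured gene in 3 lists; red genes rose, blue genes fell and grey genes did not pass the test. Increases fill the nucleolar list (26 of 33), occupy the upper part of the synthetase list (9 of 17), and are absent from the sterol list, where 10 of 18 fell.

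Sterol synthesis was the list with the most decreases by share. Of 18 measured genes 10 fell and none rose, with a median log2 change of -0.55, and 8 to 10 fell with any 1 array left out. The pathway builds cholesterol from acetyl-CoA under the control of the transcription factor SREBP-2. At its entry Hmgcs1, the cytosolic HMG-CoA synthase, fell from 2201 and 1880 to 749 and 815 (log2 change -1.46 ± 0.12, adjusted p = 2.7e-06). In the middle of the pathway Fdps, farnesyl diphosphate synthase, fell from 977 and 992 to 336 and 385 (3.13-fold, adjusted p = 1.2e-06), and Sqle, squalene epoxidase, fell from 671 and 639 to 199.8 and 213. Later steps fell too, with Msmo1 at 561 and 500.4 against 216 and 237 and Hsd17b7 at 529 and 466 against 194 and 239, each a 2.89-fold decrease.

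Srebf2, which encodes SREBP-2, fell from 289 and 304 to 197 and 209 (log2 change -0.75 ± 0.12, adjusted p = 0.00067). The decrease was not uniform along the pathway: Idi1, Ebp, Sc5d, Mvd and Dhcr7 were measured and did not pass the test. The upstream stretch of Hmgcs1 is shown because it holds the sterol-element letters TCACNCCAC, in capitals.
Hmgcs1, chr13:119690191-119690241, plus strand: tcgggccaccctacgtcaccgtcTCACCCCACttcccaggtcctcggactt
On either strand those letters were found in 1.41% of tested genes with a window and in 1 of the 15 sterol genes with one.

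Fatty acid synthesis genes fell in 4 of 16 cases, with none rising. Fads1, the delta-5 desaturase, fell from 953 and 1085 to 497 and 530.3 (log2 change -1.09 ± 0.11, adjusted p = 2.3e-05), and Acaca, acetyl-CoA carboxylase, fell from 668 and 840.1 to 484 and 464 (log2 change -0.74 ± 0.13, adjusted p = 0.0012). Among 16 genes of lipid transport 2 rose and 1 fell, and 1 rose with any 1 of the 4 wild-type arrays left out. Lpl, lipoprotein lipase, rose from 4391 and 4468 to 6536 and 6936 (log2 change 0.61 ± 0.12, adjusted p = 0.0034), and Apoc2, the apolipoprotein that activates this lipase, fell from 288 and 265 to 153 and 159 (log2 change -1.22 ± 0.13, and -0.58 as the mean of its probes). The scavenger receptor Cd36 was at background on 3 of 4 arrays.

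Glycolysis and hypoxia genes fell in 7 of 23 cases and rose in 1, with a median log2 change of -0.24. Tpi1, triosephosphate isomerase, fell from 3544 and 3811 to 2040 and 2451 (log2 change -0.73 ± 0.12, adjusted p = 0.00064), and Aldoa, aldolase A, fell from 4547 and 4709 to 2856 and 3028 (log2 change -0.67 ± 0.08, adjusted p = 9.4e-05). The exception was Pfkfb4, which sets the level of a glycolytic activator, at 436 and 470.2 against 712 and 809.6 (log2 change 0.84 ± 0.11, adjusted p = 0.00014). Oxidative phosphorylation subunits had 2 of 32 falling and a median log2 change of -0.02. Fatty acid oxidation and citric acid cycle enzymes had 2 of 30 rising, 2 falling and a median log2 change of 0.00, both lists below the background share. Without the first control array neither list kept its counts (no subunit fell, no enzyme rose and 1 fell); without the first IL-4 array 1 subunit fell and no enzyme rose, and without the second IL-4 array 1 subunit fell and 1 enzyme rose. Within the second list Idh1, cytosolic isocitrate dehydrogenase, fell from 1305 and 1038 to 748 and 783 (log2 change -0.65 ± 0.11, adjusted p = 0.0013).

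Of 14 NRF2 targets, genes of the oxidative stress response, 6 fell and none rose, with a median log2 change of -0.23. Gclm, the modifier subunit of glutathione synthesis, fell from 1093 and 1354 to 462 and 672 (log2 change -1.23 ± 0.20, adjusted p = 0.00088). Hmox1, heme oxygenase 1, measured 5873 and 6251 against 2325 and 3370, a call lost with robust moderation (adjusted p = 0.11). Blvrb, a biliverdin reductase of the same heme pathway, fell from 4924 and 4935 to 2918 and 2965 (log2 change -0.76 ± 0.10, adjusted p = 0.00012). Tfrc, the transferrin receptor that brings iron into the cell, rose from 703 and 635 to 1346 and 1139 (log2 change 0.96 ± 0.11, adjusted p = 5.4e-05). It was the 1 increase among 12 iron genes, of which 4 fell, with a median log2 change of 0.02. Msrb1, a selenoprotein that repairs oxidised methionine, was among the 15 largest decreases, at 664 and 682 against 240.2 and 286 (log2 change -1.63 ± 0.12, adjusted p = 8.2e-07).

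Of 27 lysosomal genes 1 fell and none rose. That gene was Ctsh, cathepsin H, at 5194 and 5514 against 2868 and 4005 (log2 change -0.67, and -0.42 without the first IL-4 array); without the first control array 2 of the list fell. In the proton pump and autophagy list 3 of 29 rose and 3 fell, close to the 7.81% and 8.6% over all tested genes. Atp6v0a1, a membrane subunit of the vacuolar proton pump, rose from 464 and 533 to 1109 and 1041 (log2 change 1.23 ± 0.10, adjusted p = 4e-06), and Atp6v1b2 of its catalytic part rose from 1546 and 1723 to 2347 and 2222 (log2 change 0.50 ± 0.10, adjusted p = 0.0027). Sqstm1, the autophagy adaptor p62, fell from 1778 and 1952 to 1283 and 1305 (log2 change -0.55 ± 0.11, adjusted p = 0.0037), and was 1 of 3 decreases, of which 1 was called without either control array or the first IL-4 array.

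Genes of antigen presentation and T cell contact rose in part. Of 12 class II genes 3 rose, and all 3 encode chains of H2-M, the chaperone that loads peptide: H2-DMa rose from 925 and 1030 to 1741 and 1468 (log2 change 0.75 ± 0.11, adjusted p = 0.0004), H2-DMb1 from 487 and 497 to 694 and 647, and H2-DMb2 from 327 and 292 to 745 and 461. The last was not called with robust moderation (adjusted p = 0.0732), its log2 change of 1.09 was 0.70 without the first IL-4 array, and 6 of the list rose without the second IL-4 array. H2-Ab1, a class II chain itself, had overlapping groups and was called without the second IL-4 array (log2 change 0.75, adjusted p = 0.00355, against 0.42 with all arrays). The summed level of B cell markers, given above, covered nearly the same range in both conditions but differed between duplicates. Cd79b, the brightest of them, measured 1362 and 893 unstimulated and 1729 and 1094 with IL-4. The part of B cell RNA in the class II values was not tested.

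Of 10 co-stimulatory and checkpoint ligands 5 rose and 1 fell. Cd83, an activation marker that stabilises class II at the surface, rose from 336 and 242 to 1078 and 682 (log2 change 1.85 ± 0.21, adjusted p = 4.7e-05). Cd40 rose from 481 and 557 to 989.8 and 811 (log2 change 0.88 ± 0.14, adjusted p = 0.00059). Cd274, the checkpoint ligand PD-L1, rose from 1245 and 1337 to 1819 and 2312 (log2 change 0.70 ± 0.12, adjusted p = 0.0011). Cd86, a ligand of CD28, fell from 632 and 607 to 405 and 428 (log2 change -0.66 ± 0.11, adjusted p = 0.00071), and without the second IL-4 array or either knockout control 2 of the list fell.

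Receptors for antibody moved apart. Fcgr2b, the inhibitory receptor for immunoglobulin G, rose from 2318 and 2400 to 5823 and 5407 (log2 change 1.27 ± 0.08, adjusted p = 2.7e-07). Fcgr1, the activating high-affinity receptor, fell from 335 and 421 to 226 and 259 (log2 change -0.81 ± 0.15, adjusted p = 0.002). Trem1, an activating receptor of myeloid cells, fell from 145 and 147 to 107 and 116 (log2 change -0.82, and -0.39 without background correction). Over the whole list of 20 Fc and ITAM-linked receptors 4 rose and 5 fell, and 2 to 3 fell with any 1 of the 4 wild-type arrays left out.

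Genes of resident peritoneal identity moved in both directions. Of 15 measured large peritoneal macrophage genes 4 rose and 2 fell, and the median log2 change was -0.09. Gata6, the factor that sets this identity, rose from 521 and 538 to 909 and 951 (log2 change 0.90 ± 0.09, adjusted p = 2.4e-05). Selp, P-selectin, rose from 105 and 113 to 153 and 161 (log2 change 1.09, and 0.53 without background correction). Ltbp1, which holds latent TGF-beta in the matrix, fell from 308 and 284 to 155 and 168 (log2 change -1.26 ± 0.12, and -0.71 as the mean of its probes). The phosphatidylserine receptor Timd4 and the complement receptor Vsig4 were measured and did not pass the test. Without either control array or the first IL-4 array 1 gene of the list fell.

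Adhesion, fusion and membrane genes included single large changes. Cdh1, E-cadherin, went from 98.1 and 93.1 to 275 and 279.9 (log2 change 2.82, and 1.54 without background correction), and Sirpa, a receptor for CD47, rose from 180.0 and 237 to 340.0 and 318 (log2 change 0.91 ± 0.16, adjusted p = 0.0016). Of 14 fusion genes 4 rose and 2 fell, and 2 rose without the first control or the second IL-4 array. Among 19 integrin and adhesion genes, where 2 rose and 4 fell (1 rose with any 1 of the 4 wild-type arrays left out), Itgb5, the partner of the alpha-v chain, fell from 994 and 1283 to 516 and 636 (log2 change -1.07 ± 0.17, adjusted p = 0.00085). Among 10 caveolar and membrane skeleton genes 2 rose and 4 fell; 2 fell without the first IL-4 array or the second control array, and none rose without the first control or first IL-4 array. Cav1, caveolin 1, went from 1381 and 1460 to 350.4 and 464. The summed level of 12 mesothelial and fibroblast markers was 1082 to 1088 unstimulated and 1083 to 1091 with IL-4. Of these, 8 were above background on no wild-type array, and no single value exceeded 102.609. The sum is therefore mostly background and cannot show whether the content of such cells was equal.

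Of 15 apoptosis regulators 2 rose and 3 fell. Fas, the death receptor, rose from 248 and 234 to 375 and 391 (log2 change 0.85 ± 0.13, adjusted p = 0.00045), and Bad, a pro-death BCL-2 relative, fell from 357 and 347 to 236 and 226 (log2 change -0.79 ± 0.11, adjusted p = 0.00018). With any 1 wild-type array or knockout control left out, 1 of the list rose, and 1 fell without the second IL-4 array. Of 11 complement genes 1 fell, and that call was lost without the first IL-4 or the second control array. Of 16 scavenger and clearance receptors 3 fell and none rose, among them Stab1, a receptor for modified lipoproteins, at 264 and 252 against 193 and 204 (log2 change -0.54 ± 0.11, adjusted p = 0.0044).

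**Figure D5:**
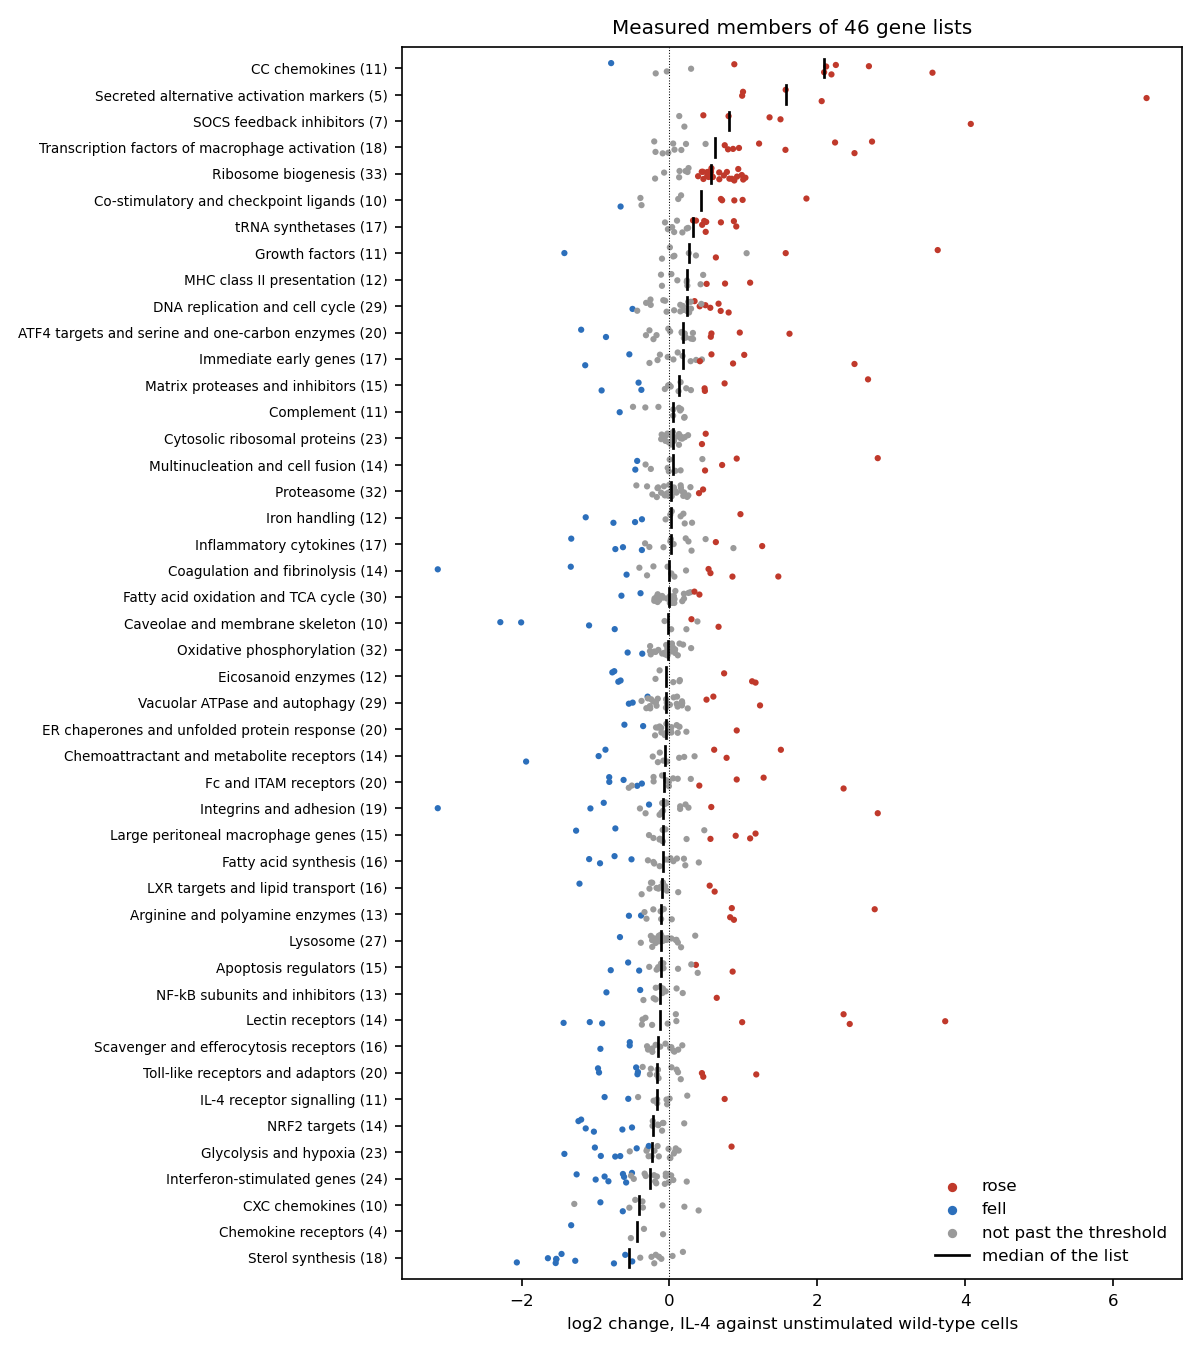
Log2 change (horizontal) of each measured member of 46 gene lists, ordered by the list median (black bar); red points rose, blue points fell, grey points did not pass the test, and the number measured stands beside each name. CC chemokines are at the top (median 2.09) and sterol synthesis at the bottom (-0.55).

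The remaining large decreases belonged to no list. Dnmt3l, a cofactor of DNA methyltransferases, fell from 315 and 347 to 114 and 143 (log2 change -2.11 ± 0.26, adjusted p = 8.9e-05, and -1.37 without background correction). Klhl6, a ubiquitin ligase adaptor known from B cells, fell from a mean of 909.6 ± 27 (SD, n = 2) to a mean of 345 ± 11.8 (SD, n = 2) (log2 change -1.59 ± 0.11, adjusted p = 6.1e-07). Agap1, a regulator of endosomal traffic, fell from a mean of 655 ± 107 (SD, n = 2) to a mean of 281 ± 43.6 (SD, n = 2) (log2 change -1.46 ± 0.15, adjusted p = 2.6e-05). Osbpl3, an oxysterol-binding relative, fell from 172 and 185 to 103 and 102, and its log2 change of -1.61 was -0.80 without background correction.

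The response was also set beside that of the Fcg-chain KO cells, whose own unstimulated arrays served as their control. Fcer1g, the Fc receptor gamma chain, averaged 12988 on the unstimulated wild-type arrays and 86.6 on the unstimulated knockout arrays, the latter at background. Of the 770 genes that rose in wild-type cells 750 had the same sign in knockout cells and 572 also passed the test there, and of the 848 that fell 815 had the same sign and 572 passed. The matching shares of all tested genes in knockout cells are not given here, so these counts alone do not measure how far the responses agree. The difference between the responses, tested as an interaction, passed for 12 of 9862 genes (0.122%). An unadjusted p under 0.05 in that test was seen in 648, a count that includes genes without a difference that this limit lets pass. Of these 12, 7 were among the genes that rose in wild-type cells and 1 among those that fell.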

How the data were processed

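Biotinylated cRNA from total RNA of 8 samples was hybridised to Illumina arrays, and the submitters' processing notes name GenomeStudio but no version. The authors deposited a linear intensity for each of 25697 probes. The sorted values of the 8 arrays differed by at most 0.57 and none was under 78.4, so they appear quantile-normalized with background kept; the method is not given in the sources used here. A second table, with 8 signal columns whose headings name no sample, was not used (16 columns with their detection p-values). No chip, scan or batch is given in the sources used here.

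Computed here: normexp background correction (offset 16), log2, no further scaling, and a probe kept if above background (mode plus 1.645 SD of the values below the mode, an intensity of 93.1 to 93.3) on both arrays of at least 1 group. Per array 54.1 to 54.8% of probes passed. A symbol was present for 23978 probes and absent for 1719, 23962 probes matched RefSeq symbols, and the brightest probe stood for each of the 2614 genes with several; 6731 genes were below background. With no detection counts, the number of arrays limits precision. limma 3.58.1 in R 4.3.3 fitted 4 group means (4 residual degrees of freedom, 9.32 prior) with trended moderation and Benjamini-Hochberg adjustment at 0.05. Pooling all 8 arrays assumes a common spread. On simulated data with 200 changed genes among 9862, 86.2% of changes of 1 log2 unit and 31.7% of changes of 0.5 were recovered, with 3.99% false calls.

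The 46 gene lists hold 983 entries, of which 783 were measured, 94 had no probe with that name here and 106 did not exceed background; some genes are in several lists. Genes were named by rule: the 15 largest called increases and decreases without overlap, up to 6 called members of each list by size of change, all members of lists of up to 8 genes, and a set of key genes. The lists, key genes and tests were chosen with earlier results of these data known. Motifs were searched on both strands of RefSeq windows. Duplicate numbers shared by groups were checked for pairing. Deviations of same-numbered arrays correlated across genes at 0.153 (wild type), 0.232 (knockout) and -0.0932 to 0.00523 across genotypes. The main fit took no arrays as pairs. Cells of different genotypes cannot come from the same animal, so the values across genotypes do not bear on pairing within a genotype. Such pairing was not modelled. Figures were drawn with matplotlib 3.10.9.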

Additional observations from a re-analysis of the deposited data

Results flagged for a closer look

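Of the named genes 4 responded differently to IL-4 in knockout and wild-type cells by the interaction test in limma, adjusted over all 9862 genes. Ccl4 rose in wild-type cells (log2 change 2.19) and not past the threshold in knockout cells (0.30), a difference of -1.89 ± 0.19 (SE, adjusted p = 0.0012). Tlr2 fell further in knockout cells (-1.99 against -0.95), a difference of -1.04 ± 0.11 (adjusted p = 0.0023). Slc7a2 rose further there (4.01 against 2.78), a difference of 1.23 ± 0.15 (adjusted p = 0.0045), and its mean intensity in unstimulated cells was 346 in knockout and 701 in wild-type arrays; the difference was not past the threshold as the mean of its probes (adjusted p = 0.205). Retnla rose further in knockout cells (2.74 against 1.00), a difference of 1.75 ± 0.27 (adjusted p = 0.0325), which ranged in adjusted p from 0.00473 to 0.342 over the alternatives and was lost, among others, without the second wild-type control (0.0863), without the second wild-type IL-4 array (0.122) and without the first knockout control (0.0974). With 2 arrays per group no array could be tested as an outlier of its group.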

How the results depend on the processing

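The number of called genes was 1494 to 1716 under the alternatives that kept all wild-type arrays and 979 to 1199 when 1 wild-type array was left out; over all arrays left out in turn it was 979 to 1582, with 482 to 755 rising and 497 to 830 falling, and 199 to 225 called genes changed at least 2-fold. The 2-fold count was 98 without background correction and 130 with an offset of 50, since both shrink the change of dim genes. With a replicate block common to both genotypes 1716 genes were called, 1601 of them shared with the 1618 of the unblocked fit. That block does not model pairing within each genotype, and the numbers are not known to pair samples. The interaction count of 12, whose alternatives were chosen after seeing the data, was 19 without background correction, 19 with no filter on dim probes, 4 with probes above background on all 4 wild-type arrays, and 3 to 10 with 1 array left out. Of 214 named genes past the threshold 144 stayed past it under every alternative that measured them, 66 lost the call when 1 array was left out, and 27 under another alternative; 58 moved over 1.5 times in log2 change without background correction. Of 13 named genes not past it, 3 passed under at least 1 alternative. Signs turned in 4 genes that did not pass the test: over arrays left out in turn Ccnd1 ranged from -0.163 (without the first control) to 0.54, Arg1 from -0.282 to 0.043 (without the first IL-4 array), Socs6 from -0.0443 (without the second control) to 0.309 and Tnf from -0.121 (without the second IL-4 array) to 0.145 in log2 change. The cause was not tested. Wild-type arrays alone called 1501 genes. Signal near background kept 6731 genes out of the main test; with them included 1494 of 16593 genes were called.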
